A study of Bos taurus with 10 samples.

Results

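The CG sites described here were variable among 9 bovine tissues. They were the autosomal cytosines in CG context that had at least 8 reads in all 10 tissues of the study and whose methylation level, the percent of reads that kept a cytosine after bisulfite treatment, spanned at least 50 points between the highest and the lowest of the 9 tissues other than testis. Of 51227 sites with at least 8 reads in every tissue, 3136 met this rule (6.12 %) and 48091 did not, and 452664 autosomal CG sites had that many reads in at least 1 tissue. Each strand of a CG counted as a site of its own, so that the 3136 variable sites, 1416 on the forward and 1720 on the reverse strand, lay in 2646 different CGs.

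Reduced representation bisulfite sequencing (RRBS) was applied to 1 library per tissue, with samples from the Hereford cow Dominette and animals related to her. Skeletal muscle, uterus, nucleated blood cells and the lactating mammary gland (day 90 of lactation) were from adult females, and testis was from an adult male. Frontal cortex, ileum, abomasum and mammary gland parenchyma were from juvenile females, and rumen was from a male fetus of 180 days. With no replicates, every test below compared libraries, and tissue cannot be told apart from animal, sex, stage or library. Intervals are Wilson intervals at 95 %. They cover counting error alone, as reads copied by PCR from 1 molecule could not be recognised.

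DNA methylation in mammals is found mainly at cytosines followed by guanine. CG-dense stretches are mostly unmethylated, CGs elsewhere are mostly methylated, and the pattern at a subset of sites differs between cell types. RRBS cuts DNA with the enzyme MspI at CCGG and sequences short fragments, which favours CG-dense sequence, and a tissue level is an average over all the cell types that the sample held.

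Windows of the runs and lone sites that carry the patterns below are shown first, to let the density and spacing of the variable CGs be seen. The letters are the forward strand of UMD3.1, read 5′ to 3′ and joined from the 5-base context that was deposited for each cytosine. A CG in capitals held a variable site on at least 1 strand, a CG in lower case held none, and n marks a base that no deposited context covered. No genome or gene annotation of UMD3.1 was used here, so that genes, exons and promoters at these positions are not given.
Largest run, highest in nucleated blood cells (chr3:118937005-118937128): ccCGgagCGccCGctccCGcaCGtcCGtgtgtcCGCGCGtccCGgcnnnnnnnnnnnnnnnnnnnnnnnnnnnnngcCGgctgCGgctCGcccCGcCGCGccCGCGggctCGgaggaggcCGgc
Run low in nucleated blood cells (chr29:44484484-44484573): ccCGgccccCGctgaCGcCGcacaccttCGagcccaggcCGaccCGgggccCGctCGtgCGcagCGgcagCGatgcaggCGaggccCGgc
Run high in lactating mammary gland (chr13:81473364-81473446): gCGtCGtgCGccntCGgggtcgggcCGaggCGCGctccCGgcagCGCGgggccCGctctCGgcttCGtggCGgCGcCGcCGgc
Run high in nucleated blood cells (chr4:69357628-69357674): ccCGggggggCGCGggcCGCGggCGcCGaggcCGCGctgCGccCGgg
Run low in skeletal muscle (chr24:57899718-57899764): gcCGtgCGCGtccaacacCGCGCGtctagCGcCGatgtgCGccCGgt
Run high in frontal cortex (chr10:81676718-81676758): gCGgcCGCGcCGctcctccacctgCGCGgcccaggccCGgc
Run high in abomasum (chr3:120474908-120474950): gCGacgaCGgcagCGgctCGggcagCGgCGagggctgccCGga
Run high in ileum (chr25:1194814-1194845): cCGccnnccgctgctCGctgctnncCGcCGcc
Run low in rumen (chr17:55935909-55935950): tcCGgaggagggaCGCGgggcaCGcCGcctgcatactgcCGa
Run low in both mammary glands (chr12:89301338-89301376): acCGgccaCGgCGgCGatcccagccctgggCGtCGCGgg
Run high in ileum and nucleated blood cells (chr13:79958890-79958939): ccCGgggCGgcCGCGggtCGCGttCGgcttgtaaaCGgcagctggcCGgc
Run low in skeletal muscle and frontal cortex (chr26:49864699-49864732): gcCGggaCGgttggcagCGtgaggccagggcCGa
Run with testis below the other tissues (chr1:45735495-45735521): aCGaggccaCGtctggaatgtctCGtg
Run with testis above the other tissues (chr5:107418267-107418298): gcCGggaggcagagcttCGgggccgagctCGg
Lone site low in lactating mammary gland (chr24:61790916-61790946): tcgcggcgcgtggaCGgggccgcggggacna
Lone site high in lactating mammary gland (chr22:59714305-59714335): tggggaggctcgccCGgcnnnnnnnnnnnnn

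The sites were selected on their levels in the 9 tissues, so that the range and the tissues at its ends are given as a description, with no test. Its median was 62.0 points, with quartiles of 55.0 and 71.5, against a median of 8.70 points over all 51227 sites. The range reached 75 points at 620 sites and 100 points at 17, and it was exactly 50 points at 147. Just inside the limit, the reverse-strand sites chr16:1849838 and chr16:1849851 both ran from 17 of 34 methylated reads in frontal cortex to 19 of 19 in abomasum. The nearest site outside it, chr16:78623890 on the forward strand, ran from 29.7 % of 37 reads in frontal cortex to 79.7 % of 64 reads in ileum, and the next, chr29:51406594, from 32.6 % of 43 reads in lactating mammary gland to 82.5 % of 40 reads in nucleated blood cells. These 4 sites differed in range by less than the width of their intervals, for example 34.1 to 65.9 % in frontal cortex at chr16:1849838.

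Most variable sites were intermediate on average. The mean level of the 9 tissues lay between 20 and 80 % at 83.4 % of the variable sites and at 10.1 % of the others. The rule asks for a wide range among the same levels, which keeps their mean away from the ends of the scale. The contrast with the other sites thus follows in part from the rule. A full switch was less frequent, and the level was at most 20 % in 1 tissue and at least 80 % in another at 685 sites (21.8 %).

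Read depth moved with membership. Of sites whose least covered tissue had 8 or 9 reads, 7.80 % were variable (1101 of 14110), and the share was 6.28 % at 10 to 14 reads, 5.42 % at 15 to 19 and 3.16 % at 20 or more (226 of 7147). The least covered tissue was abomasum at 79.0 % of the variable sites and at 85.2 % of all sites tested. At variable sites abomasum had a median of 12 reads, and the medians of the other 9 tissues lay between 29 and 45. The part of depth in the choice of sites was not tested.

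Nucleated blood cells held the highest level more often than any other tissue. They were the only highest tissue at 1195 sites (38.1 %), followed by abomasum at 295, lactating mammary gland at 277, ileum at 265, frontal cortex at 259 and skeletal muscle at 218. Mammary gland parenchyma was highest at 170 sites, rumen at 142 and uterus at 76. At 239 sites tissues tied for the highest level, 217 of them at 100 %. Among the 226 sites with at least 20 reads in every tissue, nucleated blood cells were highest at 32.3 % and mammary gland parenchyma, which had 5.42 % of all variable sites, at 19.9 %.

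The lowest level was spread more evenly. Lactating mammary gland was the only lowest tissue at 529 sites (16.9 %), rumen at 509 (16.2 %) and frontal cortex at 477 (15.2 %), and the order of these 3 changed with the settings. Mammary gland parenchyma was lowest at 375 sites, abomasum at 328, skeletal muscle at 318 and nucleated blood cells at 271 (8.64 %). Ileum was lowest at 122 sites and uterus at 43 (1.37 %), so that uterus was the tissue least often at either end. At 164 sites tissues tied for the lowest level, 144 of them at 0.

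**Figure D1:**
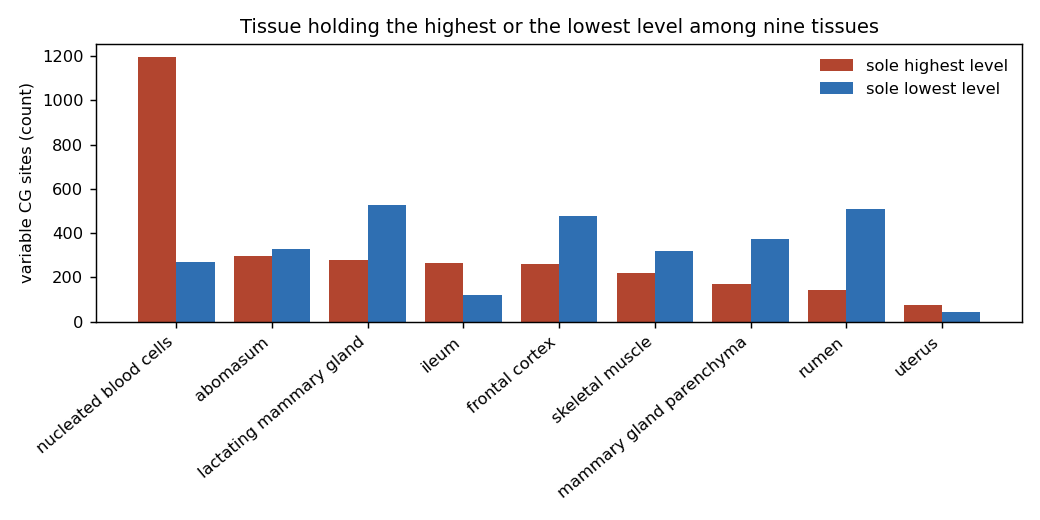
Number of variable CG sites (y axis) at which each of the 9 tissues (x axis) alone held the highest (red bars) or the lowest (blue bars) methylation level. Nucleated blood cells had 1195 highest and 271 lowest sites, and uterus had 76 and 43.

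The pair most often found at the ends was nucleated blood cells as the highest and rumen as the lowest tissue, at 309 sites (9.85 %). It was followed by nucleated blood cells over lactating mammary gland at 189 sites, over mammary gland parenchyma at 174, over frontal cortex at 170 and over abomasum at 157. Of the 72 possible ordered pairs, 71 occurred.

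Mean levels over the variable sites were highest in the tissue that was most often at the top. Nucleated blood cells averaged 68.1 %, ileum 62.6 %, uterus 58.6 %, abomasum 54.5 %, skeletal muscle 52.8 % and frontal cortex 51.2 %. Lactating mammary gland averaged 50.3 %, rumen 48.6 % and mammary gland parenchyma 48.3 %. At the other sites the 9 tissues averaged between 25.4 % in frontal cortex and 29.4 % in nucleated blood cells. The rule keeps the range at those sites under 50 points, so that closer means there follow in part from it.

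Pairs of tissues were compared over the variable sites by Pearson's r, which describes sites that share libraries and, within runs, reads. It was highest for uterus and ileum (0.763), uterus and nucleated blood cells (0.704) and testis and ileum (0.686). Abomasum and rumen, both compartments of the ruminant stomach, had an r of 0.653, and the growing and the lactating mammary gland 0.644. It was lowest for nucleated blood cells and lactating mammary gland, at 0.170, with a mean absolute difference of 35.2 points. Over all 51227 sites the same coefficient was 0.981 for uterus and ileum and 0.947 for nucleated blood cells and lactating mammary gland. The rule selects sites at which these tissues differ, so that lower coefficients at the variable sites follow in part from it.

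Most variable sites lay in runs. Sites were linked when another variable site was within 100 bp, and 2566 sites (81.8 %) fell into 501 runs, while 570 (18.2 %) were alone. Runs of at least 3 sites numbered 353 and held 2270 sites, 61 runs had at least 10 sites, and the largest had 34. In 9 runs the only members were both strands of 1 CG. Around a variable site, 60.5 % of the other tested CG cytosines within 100 bp were variable on average, leaving out the opposite strand of the same CG. Around the other sites this share was 2.54 %.

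Lone sites had fewer tested neighbours. They had a median of 3 tested CG cytosines within 100 bp, and 74 had none, against a median of 8 for sites in runs. CG sites that did not meet the rule were then compared between the same pair of tissues that were highest and lowest at the variable site within 50 bp. Next to sites in runs they differed by a median of 29.4 points, in the same direction for 1376 of 1462 sites (94.1 %). Next to lone sites the median was 11.1 points, in the same direction for 393 of 479 (82.0 %). Cytosines outside CG context within 50 bp had mean levels of 1.98 % in the tissue that was highest and 1.48 % in the one that was lowest, and differed by over 25 points at 7 of 3109 sites. Neighbours on the same strand lie on the same reads, so that they are not separate measurements.

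Levels of adjacent variable sites followed each other. For 1126 adjacent pairs on the same strand and within the read length of 49 bp, the median r over the 9 tissues was 0.922, and 68.4 % of the pairs without ties had the same highest tissue. For the 490 CGs at which both strands were variable, which different reads measure, the median r was 0.888, and 64.1 % had the same highest and 59.7 % the same lowest tissue. Other adjacent pairs on opposite strands gave 0.865. On the same strand beyond 49 bp there were only 12 pairs, with a median r of 0.220.

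In the largest run, chr3:118937007-118937126, 34 of 36 tested sites were variable. The mean level over its members was 96.6 % in nucleated blood cells, 85 % in ileum, 76.4 % in lactating mammary gland, 67.6 % in uterus and 66.8 % in skeletal muscle. It was 51.3 % in frontal cortex, 49.9 % in abomasum, 36.9 % in mammary gland parenchyma and 35 % in rumen, with 52.2 % in testis. Nucleated blood cells were the only highest tissue at 32 of the 34 members, and the other tissues filled the range below without a wide gap.

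The levels were not even along that run, which was split after its values were seen at the stretch without tested sites. In nucleated blood cells the 16 members of the first 41 bp averaged 98.1 % ± 1.89 (SD over members) and the 18 members from 75 to 119 bp 95.3 % ± 5.82. In testis the same parts averaged 77.5 % ± 15.4 and 29.8 % ± 9.08, and in abomasum 66.5 % ± 17.6 and 35.1 % ± 11.7. Lactating mammary gland kept 76.2 % ± 8.31 and 76.6 % ± 11.7. Testis was nearest to lactating mammary gland in the first part, followed by uterus (74.6 % ± 7.65), and nearest to rumen (29.5 % ± 12.6) in the second. Depth changed with the parts, since testis had 12 to 14 reads at the members of the first and 35 to 57 at those of the second, and abomasum had 11 to 15 and 8 to 19.

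The run chr29:44484486-44484571 had the opposite pattern, with nucleated blood cells as the lowest tissue at all 25 of its 25 tested sites. Their mean was 1.88 %, and no member exceeded 7.89 % on 38 to 59 reads. The other 8 tissues averaged 48.4 % in uterus, 62.4 % in ileum, 69.9 % in skeletal muscle, 70.4 % in lactating mammary gland, 79.2 % in frontal cortex, 78.4 % in mammary gland parenchyma, 83.3 % in abomasum and 90.1 % in rumen. Testis, at 62.8 %, lay with those tissues.

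In the run chr13:81473366-81473444, 25 of 28 tested sites were variable and lactating mammary gland was the highest tissue at all 25. It averaged 66.0 %, with members between 55.0 and 78.8 %. Mammary gland parenchyma followed at 30.6 %, and the other 7 tissues averaged between 7.77 % in nucleated blood cells and 18.4 % in uterus. Testis averaged 11.9 %. At 1 CG inside the run the strands differed in every tissue. Its forward cytosine, chr13:81473396, did not meet the rule and had between 87.5 % in abomasum and 100 % in rumen, frontal cortex and mammary gland parenchyma, with 96.9 % in lactating mammary gland and 93.6 % in testis. Its reverse cytosine, a member, had 57.5 % in lactating mammary gland, 11.5 % in testis and 5 to 23.8 % in the other 8 tissues.

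In the run chr19:51542548-51542670, 21 of 39 tested sites were variable. Nucleated blood cells averaged 63.3 %, uterus 28.9 %, skeletal muscle 19.3 %, ileum 19.2 % and the other 5 tissues between 2.05 and 7.18 %. Testis averaged 11.7 %, between these 5 tissues and ileum. In the run chr4:69357630-69357672 all 20 tested sites were variable. Nucleated blood cells averaged 94.2 %, 38.6 points above skeletal muscle at 55.6 %. Below these came uterus at 52.6 %, ileum at 43.6 %, lactating mammary gland at 35.3 % and mammary gland parenchyma at 27.7 %. Frontal cortex had 6.22 %, rumen 4.63 % and abomasum 4.14 %. Testis averaged 15.8 % there. In both of these runs testis thus lay between the lowest group of tissues and the next tissue above that group.

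**Figure D2:**
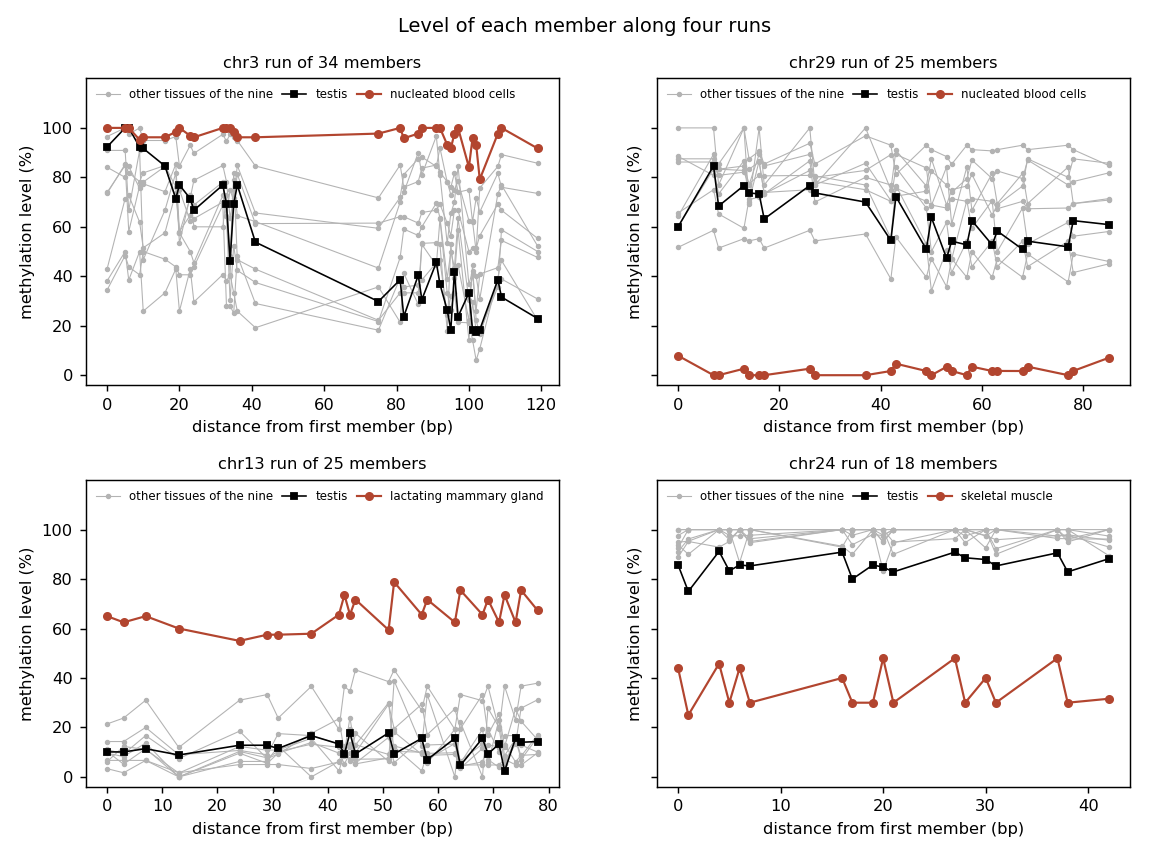
Methylation level (y axis, %) of each variable site against its distance in bp from the first member (x axis) in 4 runs. Red marks the tissue named in each panel, black squares mark testis and grey lines the other 8 tissues of the 9. Nucleated blood cells stay at or below 7.89 % along the chr29 run, and testis falls along the chr3 run.

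Sites were also sorted by the largest gap between neighbouring levels among the 9. A gap of at least 25 points set 1 tissue above the other 8 at 461 sites (14.7 %), set 1 tissue below them at 572 (18.2 %) and split the tissues into larger sets at 396 (12.6 %). At 1707 sites (54.4 %) no gap was that wide and the levels were graded. The shares for lone sites were 13 % with 1 tissue high, 20.2 % with 1 low, 7.72 % split and 59.1 % graded, and for sites in runs they were 15.1, 17.8, 13.7 and 53.4 %.

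Nucleated blood cells were the tissue set apart most often, alone high at 196 sites in 78 runs or lone sites and alone low at 118 sites in 26. Lactating mammary gland was alone low at 112 sites, 38 of them lone, and alone high at 66. Skeletal muscle was alone low at 89 sites and alone high at 59, and frontal cortex at 78 and 40. Abomasum was alone high at 73 sites, of which 32 were lone, and alone low at 68, of which 30 were lone. Its median depth at these sites was 12 reads in both cases. Rumen was alone low at 53 sites and mammary gland parenchyma at 40. Ileum was alone low at 13 sites and alone high at 13.

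The clearest examples for single tissues, by the widest gap, came from runs of at least 3 sites. Members with nearly the same depth can lie on the same reads, so that they are not separate measurements. Skeletal muscle stood alone in the run chr24:57899720-57899762 (18 of 19 tested sites variable), with a mean of 36.4 % and no member above 48.0 %. The other 8 tissues averaged between 96.3 % in abomasum and 99.3 % in lactating mammary gland, and testis averaged 85.8 %. Frontal cortex, part of the brain's outer layer, stood alone in the run chr10:81676720-81676756 (7 of 7) at 67.7 % on 37 to 38 reads. The other 8 averaged at most 3.53 % there and testis 3.40 %. In these picked runs muscle was thus low among methylated tissues and cortex high among unmethylated ones. Over all variable sites both were alone low more often than alone high, muscle at 89 against 59 sites and cortex at 78 against 40.

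Abomasum, the glandular stomach compartment, stood alone in the run chr3:120474910-120474948 (7 of 8) at 62.4 % on only 12 to 14 reads. Frontal cortex followed at 9.89 %, and skeletal muscle and testis had 0 %. Rumen, the fermentation chamber, was low in the run chr17:55935911-55935948 (6 of 6) at 26.2 %, with 42 reads at each member. The other 8 averaged between 57.3 % in frontal cortex and 93.1 % in nucleated blood cells, and testis averaged 93.9 %. Ileum, the last stretch of the small intestine, was high in the run chr25:1194816-1194843 (4 of 5) at 52.5 %, with 50 reads at each member. There the other 8 averaged between 0 % in nucleated blood cells and 15.7 % in uterus, but testis had 50.5 %. Among these 3 runs, testis went with the single tissue only at the run of the ileum.

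Nucleated blood cells, which are the white cells in cattle, were set apart by the widest margin in the run chr25:3645848-3645872 (6 of 6) at 91.3 %, on 32 to 33 reads. Abomasum followed at 38.3 %, and testis averaged 48.6 %. In the run chr13:55346106-55346137 (4 of 6) lactating mammary gland averaged 53.4 %, ileum 2.68 %, nucleated blood cells 2.27 % and mammary gland parenchyma 0.926 %, and the other 5 tissues of the 9 had 0 %. Testis averaged 15.5 % in it. Lactating mammary gland had 52 reads at each member of that run and abomasum 8. The lactating gland was thus far from the parenchyma of the juvenile gland in this run, which was picked for the gap. Over all variable sites both glands had an r of 0.644 and a mean absolute difference of 17.4 points.

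Mammary gland parenchyma was the single low tissue in the run chr25:1717807-1717846 (8 of 9), at 36.5 % against 72.4 to 96.4 % in the other 8 and 54.1 % in testis. Uterus, the tissue least often at an end, had no run with a gap of 25 points. The nearest, chr18:62677431-62677441 (3 of 5), had uterus at 73.8 % and nucleated blood cells at 58.3 %, a gap of 15.5 points.

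Larger sets of tissues took 104 different forms, the single-tissue ones included. The most frequent set of more than 1 tissue was formed by both mammary glands, which were low together at 78 sites in 33 runs or lone sites. In the run chr12:89301340-89301374 (13 of 13) parenchyma averaged 27.8 % and the lactating gland 19.4 %, and the other 7 lay between 57.3 % in uterus and 79.9 % in abomasum. Testis averaged 65.1 %. The shared direction of the juvenile and the lactating gland is part of how these sites were grouped. Both glands were high together at 9 sites, while the lactating gland alone was low at 112 and parenchyma alone at 40.

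Ileum and nucleated blood cells were high together at 36 sites. In the run chr13:79958892-79958937 (16 of 16) they averaged 81.8 and 82.5 %, frontal cortex followed at 55.7 %, and skeletal muscle was lowest at 3.70 %. Testis averaged 46.7 %. Skeletal muscle and frontal cortex were low together at 19 sites, for example in the run chr26:49864701-49864730 (6 of 6) with 38.0 and 35.9 %. The other 7 lay between 78.6 and 95.7 % there, and testis averaged 84.8 %.

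**Figure D3:**
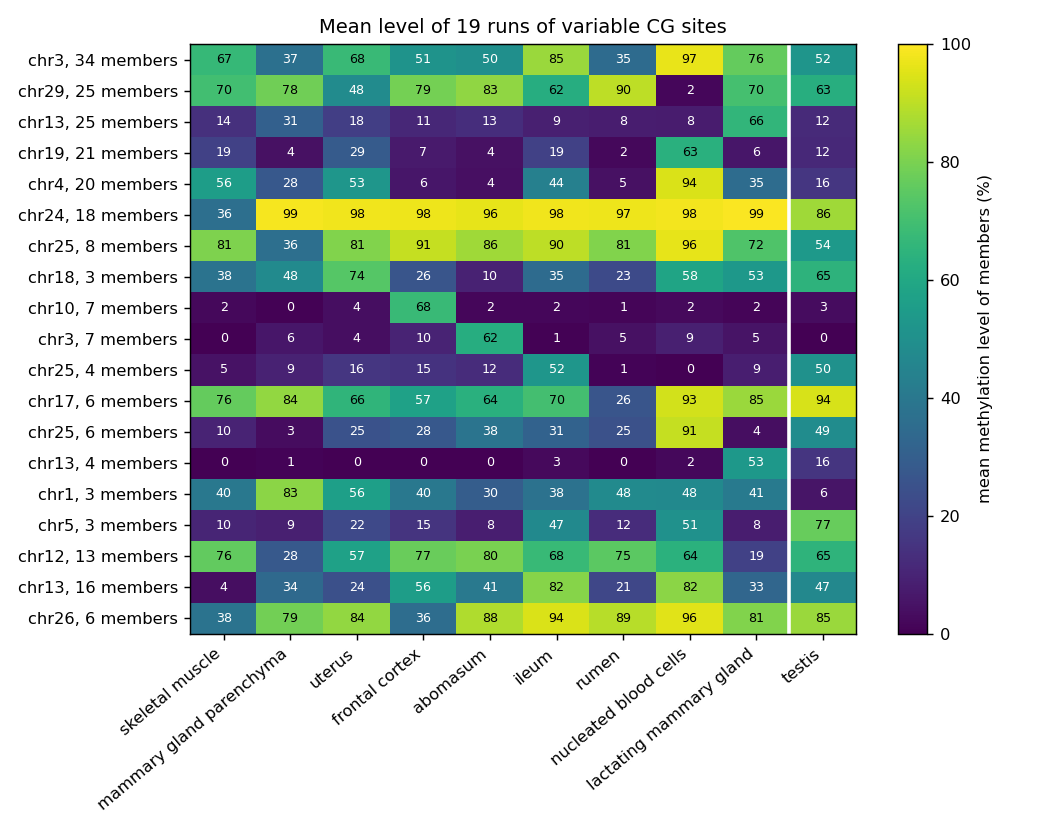
Mean methylation level (colour and printed number, %) of the variable sites of 19 runs (rows, with chromosome and number of members) in the 9 tissues and, right of the white line, in testis (columns). The 5 largest runs come first, then runs in which 1 tissue stood apart, runs with testis outside the range, and runs with larger sets. Skeletal muscle alone is low (36.4 %) in the chr24 run, and testis is far below the other tissues (5.73 %) in the chr1 run.

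Single sites with at least 20 reads in every tissue showed how the lone and the linked sites could differ. At chr24:61790931 on the reverse strand, which was alone and had no tested opposite strand, 0 of 40 reads were methylated in lactating mammary gland (0 to 8.76 %) and 11 of 31 in rumen (35.5 %). The other 7 tissues had between 92.6 and 100 %, and testis had 45 of 67 reads (67.2 %). A C-to-T variant carried by an animal would be counted as unmethylated reads, and with 1 library per tissue a low level at a single site cannot be told apart from such a base change. At chr4:69357655 on the reverse strand, inside the run of 20 sites, nucleated blood cells had 24 of 24 methylated reads and rumen 0 of 34. The cytosine on the opposite strand had 92.6 % of 27 reads and 5 % of 40 reads in the same tissues, so that both strands gave the contrast. A base change was not tested there either, since loss of the CG can lower both strands.

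At chr22:59714320 on the reverse strand, which was alone, 52 of 52 reads were methylated in lactating mammary gland (93.1 to 100 %) and the other 8 tissues had between 1.49 and 6.71 %. The opposite strand of the same CG had 1.64 % of 244 reads in lactating mammary gland, so that the strands differed there by almost the whole scale. In the other 8 tissues the first strand had between 201 and 986 reads, more than the 52 in lactating mammary gland. At chr7:105905443 on the forward strand, in a run of 3 sites without a tested opposite strand, lactating mammary gland had 94.6 % of 37 reads, testis 40.6 % of 32 reads, and the other 8 tissues between 4.50 and 16.1 %. At chr11:105652114 on the forward strand, in a run of 9, rumen had 8.33 % of 36 reads against 92.5 % of 53 reads in lactating mammary gland, and on the opposite strand 27.3 % of 22 against 90.3 % of 31.

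The opposite strand of a CG is read from other molecules and did not enter the choice of the site on the first strand. Of the 3136 variable sites, 1432 had a tested opposite strand. For each, the reads of the opposite strand were compared between the tissue that was highest and the tissue that was lowest on the first strand, by a two-sided Fisher's exact test with Benjamini-Hochberg adjustment over all 25824 sites with a tested opposite strand. A difference in the same direction of at least 25 points with an adjusted p below 0.01 was called at 917 sites (64.0 %), where 6.80 % of all sites tested were called. The direction was the same at 1327 sites (92.7 %), and 5 sites were called in the other direction. Of all 25824 sites 45.8 % had the same direction, with a median difference of 0, and 21 were called in the other direction. The median difference was 63.4 points on the first strand and 50.2 on the opposite one (quartiles 30.4 and 64.7).

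The share called on the opposite strand was also counted for sites in runs and for lone sites. Of 1280 sites in runs of more than 1 CG, 893 were called (69.8 %), with a median difference of 53.2 points. Of 152 sites that were alone or had only their own opposite strand as a partner, 24 were called (15.8 %), with a median of 9.01 points. Runs were linked over both strands, so that variable sites on the opposite strand, which share reads with the cytosine compared, helped to decide which sites were in a run. With sites linked only to others on their own strand, a setting chosen after seeing the data, 880 of 1237 linked sites (71.1 %) and 37 of 195 unlinked ones (19 %) were called. At 980 of the 1432 sites the opposite strand was itself variable, which the rule had selected, and 804 of these were called. At the other 452 sites 113 were called (25 %), with a median of 23.5 points. These groups are given as counts, and the difference between them was not tested.

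Deeper sites were called less often. Where both strands had at least 20 reads in every tissue, 13 of 55 variable sites were called (23.6 %), with a median of 12.0 points on the opposite strand. Of the 1377 sites with fewer reads in at least 1 tissue, 904 were called (65.6 %). Runs were also less frequent among deep sites, and 53.1 % of the 226 variable sites with at least 20 reads in all tissues lay in a run of such sites. The part of depth in these shares was not tested.

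**Figure D4:**
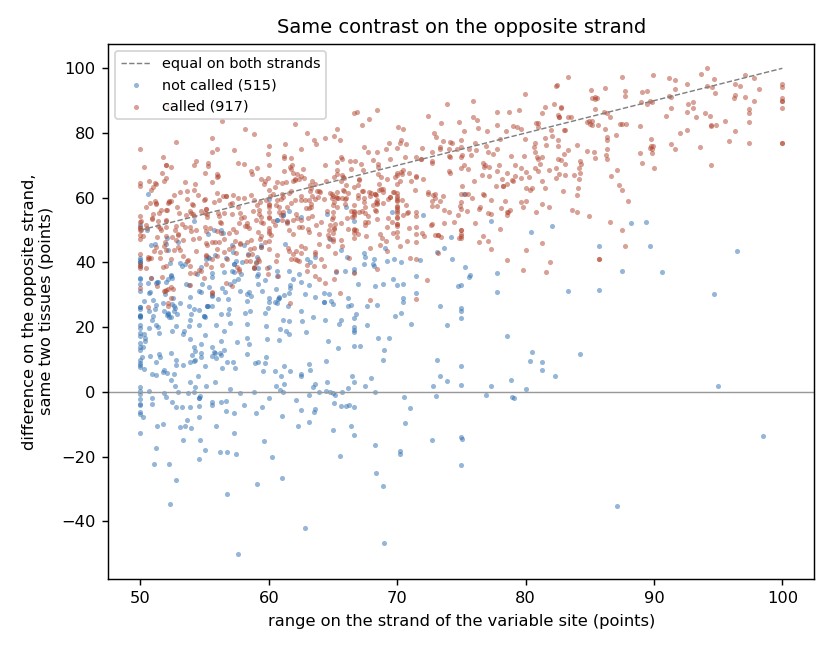
Difference on the opposite strand between the same pair of tissues (y axis, points) against the range on the strand of the variable site (x axis, points) for 1432 sites. Red points are the 917 called sites, blue points the others, and the dashed line marks equal values on both strands. Blue points around 0 are found at narrow and at wide ranges.

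Testis, which the rule left out of the range, lay within the range of the 9 tissues at 2625 variable sites (83.7 %), below it at 323 (10.3 %) and above it at 188 (5.99 %). A range of at least 50 points leaves less room outside it than the narrow range of the other sites, at which testis was within at 77.9 %, below at 16.6 % and above at 5.48 %. Testis was tested against the nearest of the 9 tissues by a two-sided Fisher's exact test with the adjustment over all 51227 sites. It was called below, by at least 25 points with an adjusted p below 0.01, at 4 variable sites (0.128 %), where 0.705 % of all sites were called, and above at 1 (0.0319 %), where 0.0508 % of all sites were called. At an unadjusted p below 0.05 there were 51 variable sites below and 6 above.

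The 5 called sites were named after their values were seen. At chr1:45735519 on the reverse strand testis had 5.80 % of 448 reads and ileum, the lowest of the 9, 36.2 % of 47 reads (adjusted p = 2.32e-06, Fisher's exact test with Benjamini-Hochberg adjustment). At chr9:45041845 testis had 13 % of 161 reads and ileum 42.5 % of 87. At chr9:53550454 testis had 5.15 % of 97 reads and ileum 34.5 % of 29, and at chr23:48066758 it had 15.1 % of 126 reads and ileum 42.4 % of 92. Ileum was thus the nearest tissue at all 4 sites below the range. At chr11:105652107 testis was above, with 97.1 % of 35 reads against 62.5 % of 48 reads in mammary gland parenchyma.

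By runs, testis lay farthest below the others in chr1:45735497-45735519 (3 of 3 tested sites variable), at 5.73 % with 447 to 448 reads. The lowest of the 9 there was abomasum at 29.6 %, and the highest was mammary gland parenchyma at 82.8 %. It lay farthest above them in chr5:107418269-107418296 (3 of 4), at 76.9 % with 13 reads, where nucleated blood cells followed at 50.7 % and lactating mammary gland was lowest at 7.84 %. Only the first of these runs held a called site, and the second rested on few testis reads.

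Within the range, testis was found near both ends. The median position was 40.9 % of the way from the lowest to the highest tissue. In steps of 25 % of the range, 853 sites had testis in the lowest step, 553 and 487 in the middle steps and 732 in the highest step. The testis level was below 20 % at 20.8 % of the variable sites and above 80 % at 25.2 %, against 69.8 and 11.2 % of the other sites. Testis was below the mean of the 9 tissues at 58.1 % of the variable sites and at 66.7 % of the others. Its r with that mean was 0.703 over the variable sites and 0.955 over the others, as a description of sites that share libraries.

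**Figure D5:**
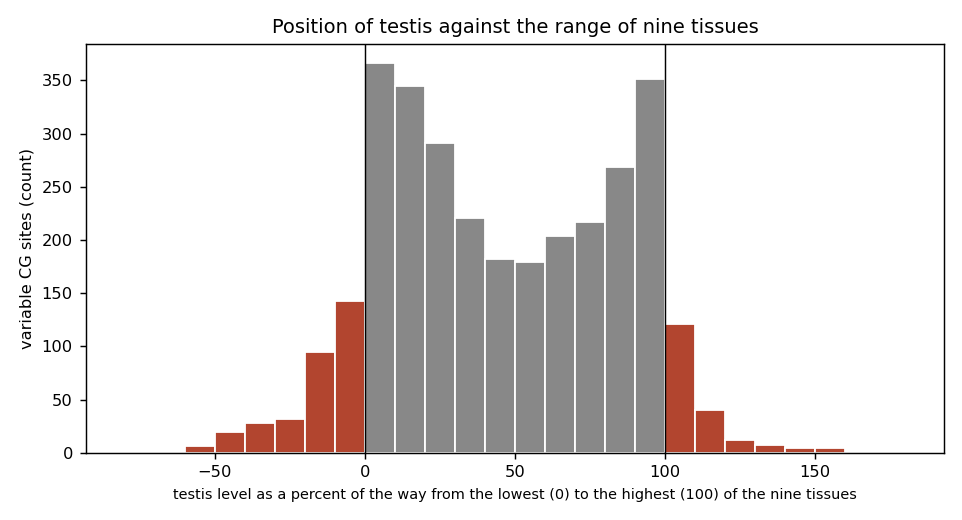
Number of variable CG sites (y axis) by the position of the testis level on a scale from the lowest (0) to the highest (100) of the 9 tissues (x axis, percent of the range, in steps of 10). Grey bars lie within the range (2625 sites) and red bars outside it (323 below and 188 above), and the counts are higher near both ends than in the middle.

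Where 1 tissue stood apart, testis mostly went with the larger set. It was nearer the low set at 417 of the 461 sites with 1 tissue high (90.5 %) and nearer the high set at 441 of the 572 with 1 tissue low (77.1 %). The share varied with the tissue that stood apart, which is given as counts without a test. Sites of 1 run share reads, so that these are not counts of separate measurements. With skeletal muscle alone low testis was nearer the high set at 86 of 89 sites, with lactating mammary gland alone low at 99 of 112 and with nucleated blood cells alone low at 96 of 118. With frontal cortex alone low it was so at 49 of 78 sites and with rumen at 33 of 53.

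Frontal cortex alone high left testis with the low set at 40 of 40 sites (14 runs or lone sites), with a mean testis level of 9.83 %. Lactating mammary gland alone high left it there at 64 of 66 (28 runs or lone sites). The counts for ileum differed from these but were small. Testis was nearer ileum at 12 of the 13 sites where ileum alone was low (11 runs or lone sites). It was nearer ileum at 7 of the 13 where ileum alone was high (8 runs or lone sites). The sites with ileum alone low had a median of 124 reads in ileum. With both mammary glands low testis was nearer the high set at 61 of 78 sites (33 runs or lone sites). With skeletal muscle and frontal cortex low it was so at 19 of 19 (9 runs or lone sites).

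Variable sites were not evenly placed along the chromosomes. Chromosome length was taken up to the last deposited cytosine on the UMD3.1 coordinates. The last 10 % of that length held 43.0 % of the variable and 28.1 % of all tested sites, so that 9.38 % of the sites there were variable. In the other windows of 10 % the share was between 3.74 and 5.78 %. By chromosome it ran from 2.11 % on chromosome 14 and 2.88 % on chromosome 1 to 9.22 % on chromosome 16 and 12.2 % on chromosome 29. These are shares of sites that lie in runs, so that 1 run adds many sites.

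The share of variable sites also varied with the bases next to the CG. With both strands read as 1 context, 9.12 % of TCGA sites (79 of 866) and 7.97 % of ACGA sites were variable, against 4.92 % of GCGC and 5.57 % of CCGC sites. At CCGG, where MspI cuts, 7.11 % of 6625 sites were variable. CCGC was the most frequent context among variable sites (33.3 %) and among all tested sites (36.6 %).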

How the data were processed

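RRBS libraries of 10 tissues, 1 per tissue, were analysed. The authors trimmed and aligned the 49-base reads to UMD3.1, kept uniquely mapped reads, and deposited for each cytosine with at least 8 reads its position, strand, 5-base context, read count without normalization and methylation level as a fraction. The deposited read counts summed over cytosines to between 16125651 in abomasum and 40089443 in testis, and the median depth per autosomal CG site was 9 to 33 reads. Other deposited columns (a further read number, a p-value and its FDR) were not used.

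Methylated reads were taken as level times reads, which was whole at every cytosine to within 2.9e-11. The rule, the linking of sites within 100 bp, the gap of 25 points and the calls (Fisher's exact test, Benjamini-Hochberg adjustment, adjusted p below 0.01 and at least 25 points) are given in the report. Sites and runs named were the 5 largest runs, the 5 widest sites with at least 20 reads in every tissue, the run of at least 3 sites with the widest gap for each tissue, the runs with testis farthest outside the range, the 2 sites nearest the limit on each side and the largest runs of the 3 most frequent splits. The members and lists were chosen with earlier results of these data known.

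Alternatives were minimum reads of 10 and 20, range limits of 40 and 60 points, pooled strands, other linking distances, gaps and call limits, each tissue left out of the range, shared ties, runs counted once, runs linked on 1 strand only (chosen after seeing the data), and the top 0.1 % of coverage left out. Sequence variants between the animals were not analysed here, and a C-to-T variant at a CG would lower its level. The software was pandas 2.3.3, SciPy 1.17.1, NumPy 2.4.6 and matplotlib 3.10.9 under Python 3.11.15, and simulations used the seed 1.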

Additional observations from a re-analysis of the deposited data

How the results depend on the processing

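The limits of these results are single libraries, shallow reads in abomasum, and sites in runs that share reads. With at least 10 reads in all tissues 2035 of 37117 sites were variable (5.48 %), 80 % of them in runs, 19.7 % had 1 tissue low, and 66.6 % of those testable were called on the opposite strand. With at least 20 reads 226 were variable and 53.1 % of them lay in runs, nucleated blood cells were highest at 32.3 %, mammary gland parenchyma at 19.9 % (5.42 % of all variable sites), frontal cortex at 1.33 % (8.26 %), lactating mammary gland lowest at 25.2 % and rumen at 11.9 %. Of these 226, 1 tissue was high at 16.4 % and low at 25.7 %, 7.52 % were split and 50.4 % graded, testis lay within the range at 73.5 % and was called below at 2, and 29.1 % of 55 were called on the opposite strand, with the adjustment over the deep sites alone. With a range limit of 40 points there were 5111 sites, 84.3 % in runs, with nucleated blood cells highest at 34.2 % and testis within the range at 79.0 % and called below at 13. With 60 points there were 1786, 83.8 % in runs, with nucleated blood cells highest at 44.3 %, rumen lowest at 18.0 %, and testis within the range at 87.7 % and called at 0 below and 0 above. With both strands pooled, which keeps only CGs tested on both, 552 of 12912 CGs were variable (4.28 %), 89.1 % in runs, with nucleated blood cells highest at 48.9 % and rumen lowest at 24.1 %. Counting each of 1071 runs or lone sites once gave 33.8 % for nucleated blood cells as highest and 13.2 % for rumen as lowest, and frontal cortex (20.4 %) then led the lowest tissues. Linking within 500 bp put 83.9 % of the sites in runs. A gap of 20 points gave 20 % with 1 tissue high, 24.5 % with 1 low, 24.2 % split and 31.3 % graded, and a gap of 30 points gave 10.4, 12.2, 6.54 and 70.8 %. With an adjusted p below 0.05, 70.0 % of sites were called on the opposite strand and testis above at 3, and with 40 points 59.8 % were called on the opposite strand and testis at 0 below and 0 above. Leaving each of the 9 tissues out of the range left 2519 to 3097 sites, the fewest without nucleated blood cells. Nucleated blood cells were the tissue most often highest under each of these settings that was applied to the tissues, while lactating mammary gland, rumen and frontal cortex exchanged places as the one most often lowest. The causes of these shifts were not tested. No paired analysis was possible because each tissue is 1 library.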

Other observations

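The strands of a CG were compared within each tissue at CGs with at least 1 variable site and both strands tested, a comparison chosen after seeing the data. With at least 20 reads on each strand, the strands differed by a median of 7.05 points, and by at least 50 points in 284 of 7202 tissue values (3.94 %) at 86 of 942 CGs. Over all 12912 CGs with both strands tested, the median was 1.71 points and 1.23 % of the tissue values differed by at least 50 points. Counting error is wider at intermediate levels, which were more frequent at variable sites, and its part in these medians was not tested. The 284 values came from every tissue, from 13 in abomasum to 48 in ileum. They were found together in places, for example 22 values at 5 CGs between positions 19406697 and 19440191 of chromosome 29, and 15 values at 7 CGs between 1020599 and 1038516 of chromosome 3. At 1 CG of the latter place, chr3:1022584, nucleated blood cells had 82.3 % of 4518 reads on the forward and 12.4 % of 169 reads on the reverse strand, and ileum had 79.4 % of 7944 and 27.1 % of 549.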
